A study of Mus musculus with 10 samples.

Results

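Genes of platelets and of megakaryocytes, the marrow and lung cells that shed platelets, were followed in whole mouse lung. The set held 10 genes, taken by symbol from the 54532 genes of the count table: Pf4, Ppbp, Gp1bb, Gp9, Gp5, Gp6, Itga2b, Treml1, Clec1b and Mmrn1. Of these, 9 passed the filter on low counts and were tested, and Gp1bb did not. The lungs came from wild-type mice in 3 groups. Vehicle (3 libraries) had neither agent, LPS (3 libraries) had lipopolysaccharide, the endotoxin of Gram-negative bacteria, and LPS+TSLP (4 libraries) had recombinant thymic stromal lymphopoietin, an epithelial cytokine, as a pretreatment before LPS. Strain, age, dose, route and time are not given in the sources used here, and neither is whether each library is a separate animal, so the p-values measure the spread between these samples.

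Platelets have no nucleus and carry RNA packed by the megakaryocyte, so their genes are read in a tissue from platelets held in its vessels and from any megakaryocytes there. At a damaged vessel the GPIb-IX-V complex tethers a platelet to von Willebrand factor, glycoprotein VI and CLEC-2 signal inward on meeting collagen or podoplanin, and the integrin αIIbβ3 then binds fibrinogen. Activated platelets release chemokines from their alpha granules. The lung holds many platelets in its capillaries and is also a site of platelet production.

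Total counts per library ran from 16175172 to 18374461, and 17139 genes were tested. Surfactant protein C (Sftpc), which marks alveolar type II cells, lay between 1280 and 15200 CPM (counts divided by the TMM-scaled library size in units of 1e+06) and so was present in all 10 libraries. The mitochondrial share of counts differed between the groups, at 1.11% to 1.27% in Vehicle, 1.2% to 2.58% in LPS and 13.1%, 6.5%, 5.35% and 2% in LPS+TSLP replicates 1 to 4. LPS replicate 1 held 206 CPM of Xist, the others at most 0.452. The Y-linked gene Ddx3y was at 0 in LPS replicate 1, 6.03 to 11.4 CPM in Vehicle and 59.7 to 94.8 CPM in the other treated libraries, so Vehicle stood apart from them in this gene. By these genes LPS replicate 1 read as female and the other libraries as male, so the LPS group mixed the sexes. Each member is given below in every library, and a call means an adjusted p under 0.05 (edgeR quasi-likelihood test, Benjamini-Hochberg over all tested genes).

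The 250 bases upstream of the RefSeq start (GRCm38.p6) are shown for 5 members. Gp9, Gp5 and Gp6 were taken because their levels followed those of Itga2b most closely between libraries. The chemokine genes Ppbp and Pf4 were taken as neighbours on chromosome 5 whose order across the LPS+TSLP libraries differed. Capitals mark AGATAA, a form of the site read by the GATA family of megakaryocyte transcription factors, and GGAAG, a core read by the ETS family, on either strand (TTATCT and CTTCC on the other), and no match of one overlapped a match of the other. The windows are Pf4 at chr5:90772185-90772434 (plus strand), Ppbp at chr5:90768268-90768517 (plus), Gp9 at chr6:87777820-87778069 (plus), Gp5 at chr16:30310782-30311031 (minus) and Gp6 at chr7:4397745-4397994 (minus).
Pf4: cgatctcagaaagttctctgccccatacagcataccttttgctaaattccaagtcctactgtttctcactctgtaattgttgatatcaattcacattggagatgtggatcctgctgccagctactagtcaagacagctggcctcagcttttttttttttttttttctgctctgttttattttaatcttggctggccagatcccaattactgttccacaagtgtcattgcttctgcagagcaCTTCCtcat
Ppbp: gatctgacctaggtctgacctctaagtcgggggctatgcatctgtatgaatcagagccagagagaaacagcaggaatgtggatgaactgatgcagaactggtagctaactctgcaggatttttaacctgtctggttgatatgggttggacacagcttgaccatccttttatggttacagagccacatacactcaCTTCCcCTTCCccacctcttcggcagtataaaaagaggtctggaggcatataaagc
Gp9: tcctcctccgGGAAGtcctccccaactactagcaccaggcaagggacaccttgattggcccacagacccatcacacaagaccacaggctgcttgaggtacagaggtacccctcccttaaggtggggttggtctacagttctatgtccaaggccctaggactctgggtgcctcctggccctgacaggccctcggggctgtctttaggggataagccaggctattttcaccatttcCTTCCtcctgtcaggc
Gp5: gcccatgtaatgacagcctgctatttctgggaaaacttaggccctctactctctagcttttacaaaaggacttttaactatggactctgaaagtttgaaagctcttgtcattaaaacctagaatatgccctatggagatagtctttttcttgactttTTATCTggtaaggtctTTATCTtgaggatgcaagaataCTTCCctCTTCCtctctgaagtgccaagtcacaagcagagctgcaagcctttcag
Gp6: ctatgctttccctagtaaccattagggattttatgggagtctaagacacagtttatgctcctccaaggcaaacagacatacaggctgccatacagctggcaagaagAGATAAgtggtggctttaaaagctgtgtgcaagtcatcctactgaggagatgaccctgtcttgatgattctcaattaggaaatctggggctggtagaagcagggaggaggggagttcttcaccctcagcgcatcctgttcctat
AGATAA was present in 2 of the 10 members' windows, Gp5 with 2 matches and Gp6 with 1, and in 9.99% of 32851 RefSeq windows of that length. GGAAG was present in 8 of the 10 and in 64.1% of all windows; Gp6 and Clec1b had none. A match describes the letters and not a bound site.

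The alpha-granule chemokines were higher in treated lung than in Vehicle, Pf4 in both treated groups and Ppbp by test in LPS+TSLP. Platelet factor 4 (Pf4, ENSMUSG00000029373, chromosome 5, 90772435 to 90773383) binds heparin and attracts leukocytes. Its level was 11.7, 14.4 and 18.7 CPM in Vehicle replicates 1 to 3, 40.9, 28.8 and 38.1 in LPS, and 21.3, 41.9, 28.0 and 25.3 in LPS+TSLP. In CPM every treated library lay above every Vehicle library, and LPS and LPS+TSLP overlapped. Pf4 rose 2.41-fold after LPS (log2 1.27, SE 0.28, edgeR adjusted p = 0.01) and was called in each of 21 alternative analyses, between log2 1.13 and 1.47. It rose 1.95-fold in LPS+TSLP (log2 0.96, SE 0.26, edgeR adjusted p = 0.034). That second call was lost without Vehicle replicate 1 (edgeR adjusted p = 0.15), Vehicle replicate 2 (0.13), LPS+TSLP replicate 2 (0.085) or LPS+TSLP replicate 3 (0.075).

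Pro-platelet basic protein (Ppbp, ENSMUSG00000029372, chromosome 5, 90768518 to 90770063) is the precursor of the neutrophil-attracting chemokine CXCL7. It lay at 10.4, 14.3 and 15.0 CPM in Vehicle, 15.7, 21.3 and 27.7 in LPS, and 34.9, 33.5, 26.2 and 20.6 in LPS+TSLP. Treated libraries were again all above Vehicle in CPM. The order within LPS+TSLP differed from that of Pf4: in CPM replicate 1 was the highest for Ppbp and the lowest for Pf4. Ppbp rose 2.18-fold in LPS+TSLP (log2 1.12, SE 0.26, edgeR adjusted p = 0.02). After LPS its difference was log2 0.70 (SE 0.27) and was not called (edgeR adjusted p = 0.079). The LPS+TSLP call was lost without Vehicle replicate 1 (edgeR adjusted p = 0.1), Vehicle replicate 2 (0.075) or LPS+TSLP replicate 2 (0.056), and when trends of counts with GC content were taken out library by library (log2 0.62, adjusted p = 0.14).

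**Figure D1:**
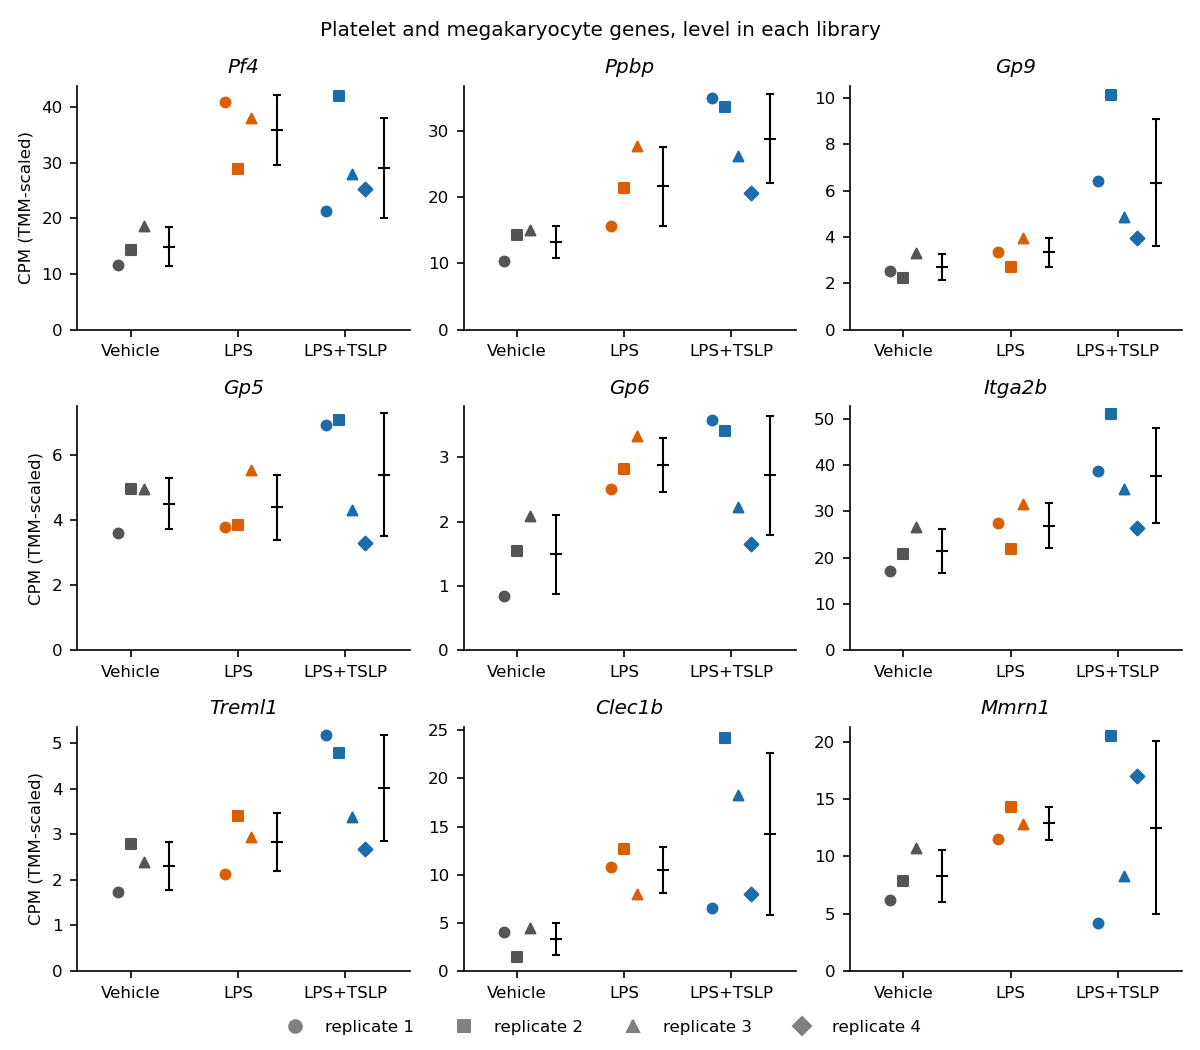
Level of each tested gene in every library, in TMM-scaled CPM on linear axes from 0; symbols mark the replicate number, and the horizontal tick with bars is the group mean ± SD (n = 3, 3 and 4). On this scale all treated libraries lie above all Vehicle libraries for Pf4, Ppbp and Clec1b. In TPM, given further below, they do not.

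The GPIb-IX-V complex is the platelet receptor for von Willebrand factor. Of its subunits Gp9 was called in LPS+TSLP against Vehicle, and Gp5 and the partner Gp1ba were not. Gp1bb was not tested, and neither was a difference between subunits. Glycoprotein IX (Gp9, ENSMUSG00000030054, chromosome 6, 87778072 to 87779768), needed to bring the complex to the surface, lay at 2.53, 2.24 and 3.33 CPM in Vehicle, 3.35, 2.71 and 3.94 in LPS, and 6.40, 10.1, 4.85 and 3.97 in LPS+TSLP. It was the one tested member whose LPS+TSLP libraries were all above all LPS libraries. Gp9 rose 2.34-fold in LPS+TSLP over Vehicle (log2 1.23, SE 0.37, edgeR adjusted p = 0.047), and lay at log2 0.30 (SE 0.39, edgeR adjusted p = 0.59) after LPS. Its count was low, 42 to 176 reads per library, and the LPS+TSLP call was kept in 7 of 21 alternatives. Of the 10 analyses without 1 library it was kept without LPS+TSLP replicate 4 (edgeR adjusted p = 0.022); the others gave 0.05 to 0.18.

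Glycoprotein V (Gp5, ENSMUSG00000047953, chromosome 16, 30307685 to 30310779), the thrombin-cleaved subunit, lay at 3.59, 4.96 and 4.97 CPM in Vehicle, 3.78, 3.84 and 5.55 in LPS, and 6.91, 7.08, 4.31 and 3.30 in LPS+TSLP. Replicates 1 and 2 of LPS+TSLP were the highest of all libraries and replicate 4 the lowest. Neither treated group differed from Vehicle by test, at log2 −0.04 (SE 0.36, edgeR adjusted p = 0.95) after LPS and 0.26 (SE 0.34, edgeR adjusted p = 0.62) in LPS+TSLP. Glycoprotein Ib beta (Gp1bb, ENSMUSG00000050761, chromosome 16, 18620317 to 18622403) had 0 counts in 9 libraries and 2 counts, 0.128 CPM, in LPS+TSLP replicate 1. In those 9 libraries a count of 0 allows up to 3 counts, or 0.16 to 0.183 CPM depending on the library. The single annotated exon of Gp1bb shares 91.1% of its bases with the gene Sept5 on the same strand, which had 56 to 115 counts per library, and the level of Gp1bb is uncertain; whether shared reads bear on its count was not tested. The partner glycoprotein Ib alpha (Gp1ba), which holds the binding site for von Willebrand factor, was not called at log2 −0.22 after LPS and −0.15 in LPS+TSLP (edgeR adjusted p = 0.66 and 0.76). The ligand Vwf, made by endothelium as well as megakaryocytes, fell by 1.78 on the log2 scale after LPS and by 1.82 in LPS+TSLP (edgeR adjusted p = 0.026 for both). Its LPS call was lost without Vehicle 1 or 2 or LPS 1 or 2 (edgeR adjusted p = 0.066, 0.068, 0.081 and 0.077), and its LPS+TSLP call without Vehicle 1 or 2 or LPS+TSLP 2 or 3 (0.078, 0.079, 0.058 and 0.079). With the trends of counts with GC content taken out, neither Vwf call was kept (log2 −1.52 and −1.62, edgeR adjusted p = 0.053 and 0.051).

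CLEC-2 and glycoprotein VI are receptors that signal through immunoreceptor tyrosine motifs. CLEC-2 (Clec1b, ENSMUSG00000030159, chromosome 6, 129397297 to 129409335), the receptor for podoplanin, had the largest fitted difference of the 9 tested members in both comparisons with Vehicle. It lay at 4.04, 1.44 and 4.48 CPM in Vehicle, 10.8, 12.7 and 7.94 in LPS, and 6.52, 24.2, 18.3 and 7.99 in LPS+TSLP. In CPM all treated libraries were above all Vehicle libraries, and LPS+TSLP spanned both the lowest and the highest treated level. Clec1b rose 3.16-fold after LPS (log2 1.66, SE 0.54, edgeR adjusted p = 0.044) and 4.29-fold in LPS+TSLP (log2 2.10, SE 0.52, edgeR adjusted p = 0.025).

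Both Clec1b calls depended on the analysis. After LPS the call was lost without any single Vehicle or LPS library and without LPS+TSLP replicate 3 (edgeR adjusted p = 0.051 to 0.14). In LPS+TSLP it was lost without Vehicle replicate 1 (0.084), Vehicle replicate 2 (0.096), LPS+TSLP replicate 2 (0.067) or LPS+TSLP replicate 3 (0.067). Clec1b has the lowest GC content of the set, 37.15% of its longest transcript. Taking out the trend of counts with GC content in each library brought the differences to log2 0.26 (edgeR adjusted p = 0.71) and 0.63 (edgeR adjusted p = 0.33). An end stretch of 184 exon bases, 3.61% of the gene, is shared with Clec9a, a dendritic cell receptor gene. The CLEC-2 ligand podoplanin (Pdpn) is made by type I alveolar cells and lymphatic endothelium. It averaged 306 CPM in LPS against 177 in Vehicle (log2 0.79, SE 0.29, edgeR adjusted p = 0.068) and 176 in LPS+TSLP (log2 −0.00, edgeR adjusted p = 0.99).

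Glycoprotein VI (Gp6, ENSMUSG00000078810, chromosome 7, 4363965 to 4397744), the collagen receptor, was the least abundant tested member, with 15 to 60 counts per library. It lay at 0.843, 1.55 and 2.08 CPM in Vehicle, 2.50, 2.82 and 3.33 in LPS, and 3.58, 3.40, 2.23 and 1.65 in LPS+TSLP. In CPM, LPS libraries were all above Vehicle, and LPS+TSLP overlapped both. Neither difference from Vehicle was called, at log2 0.95 (SE 0.44, edgeR adjusted p = 0.13) after LPS and 0.86 (SE 0.42, edgeR adjusted p = 0.17) in LPS+TSLP. The Fc receptor gamma chain (Fcer1g), which carries the signal of glycoprotein VI and is also made by myeloid leukocytes, rose by log2 2.23 after LPS (edgeR adjusted p = 0.0032) and by 1.76 in LPS+TSLP (edgeR adjusted p = 0.0094). The second call was lost without Vehicle replicate 1 (edgeR adjusted p = 0.062) or Vehicle replicate 2 (0.054). The fibrillar collagen gene Col1a1, whose protein is a ligand of glycoprotein VI, fell by 1.66 on the log2 scale after LPS (edgeR adjusted p = 0.013) and was not called in LPS+TSLP (log2 −0.88, adjusted p = 0.11).

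Integrin alpha IIb (Itga2b, ENSMUSG00000034664, chromosome 11, 102453297 to 102470122) pairs with beta 3 as the fibrinogen receptor and is an early marker of the megakaryocyte lineage. It lay at 17.2, 20.7 and 26.7 CPM in Vehicle, 27.4, 21.9 and 31.5 in LPS, and 38.8, 50.9, 34.8 and 26.4 in LPS+TSLP. In CPM, 3 of the 4 LPS+TSLP libraries were above all others, and the replicate 4 value lay just under the highest Vehicle library. The difference of LPS+TSLP from Vehicle was 1.75-fold (log2 0.81, SE 0.25) with an edgeR adjusted p of 0.052, and it was called in 7 of 21 alternatives, among them those without LPS+TSLP replicate 4 (edgeR adjusted p = 0.018) and without Vehicle replicate 3 (0.045). After LPS the difference was log2 0.32 (SE 0.26, edgeR adjusted p = 0.39). The beta 3 subunit (Itgb3), shared with endothelium and macrophages, was not called in either comparison, at log2 0.09 after LPS (edgeR adjusted p = 0.81) and −0.50 in LPS+TSLP (edgeR adjusted p = 0.16).

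The remaining members are stored in alpha granules. TLT-1 (Treml1, ENSMUSG00000023993, chromosome 17, 48359916 to 48367176), a receptor that reaches the surface on activation, lay at 1.74, 2.78 and 2.40 CPM in Vehicle, 2.13, 3.39 and 2.94 in LPS, and 5.18, 4.78, 3.38 and 2.68 in LPS+TSLP. Replicates 1 and 2 of LPS+TSLP were the highest, and all 3 groups overlapped. It was not called after LPS (log2 0.29, SE 0.37, edgeR adjusted p = 0.59) or in LPS+TSLP (log2 0.79, SE 0.35, edgeR adjusted p = 0.14). Multimerin 1 (Mmrn1, ENSMUSG00000054641, chromosome 6, 60924976 to 60989378) binds coagulation factor V and is also made by endothelium, lymphatic endothelium in particular. It lay at 6.18, 7.90 and 10.7 CPM in Vehicle, 11.5, 14.3 and 12.8 in LPS, and 4.16, 20.5, 8.29 and 17.0 in LPS+TSLP. In CPM, LPS libraries were all above Vehicle, whereas LPS+TSLP held both the lowest and the highest library of all 10. Mmrn1 was not called after LPS (log2 0.64, SE 0.48, edgeR adjusted p = 0.34) or in LPS+TSLP (log2 0.59, SE 0.45, edgeR adjusted p = 0.39).

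Counted together, 2 of the 9 tested members were called higher after LPS (Pf4 and Clec1b) and none lower, where 14.2% of all tested genes were called higher, 10.7% lower and 24.9% either way. A share of 2 in 9 is close to that background. The median log2 fold change of the 9 was 0.64, beside 0.01 over all tested genes, and 8 were positive, the exception being Gp5. In 5 of the 9 (Pf4, Ppbp, Gp6, Clec1b and Mmrn1) the LPS and Vehicle ranges in CPM did not overlap, LPS being higher, as in 24.7% of all tested genes. In TPM, a scale explained below, the ranges of Pf4 and Clec1b did not overlap and those of Ppbp, Gp6 and Mmrn1 did. In LPS+TSLP against Vehicle 4 of 9 were called higher (Pf4, Ppbp, Gp9 and Clec1b) and none lower, where 8.82% of all tested genes were called higher, 5.35% lower and 14.2% either way. The median was 0.86, beside 0.03 over all genes, and all 9 were positive. In the 4 called genes all LPS+TSLP libraries lay above all Vehicle libraries in CPM, as they did in 15.7% of all tested genes. In TPM this held for Ppbp and Gp9 and not for Pf4 or Clec1b. Both comparisons share the Vehicle libraries. The LPS+TSLP count fell to 0 without Vehicle replicate 1, Vehicle replicate 2 or LPS+TSLP replicate 2 and to 1 without LPS+TSLP replicate 3, and the LPS count fell to 1 without any single Vehicle or LPS library or without LPS+TSLP replicate 3, Pf4 being the gene kept.

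LPS+TSLP against LPS asked what the cytokine pretreatment changed. No member was called, and 0% of all tested genes were called in that comparison; at an unadjusted p under 0.05 there were 1 member, Gp9, and 8.1% of all genes. The DESeq2 Wald test called 22 genes higher and 12 lower, no member among them. Gp9 stood at log2 0.92 (SE 0.36, edgeR adjusted p = 0.59), 1.9-fold higher in LPS+TSLP, and was the 1 member without overlap, where 3.88% of all tested genes had every LPS+TSLP library above every LPS library. Itga2b stood at 0.49 (SE 0.25), Treml1 at 0.50 (SE 0.35), Clec1b at 0.44 (SE 0.49), Ppbp at 0.42 (SE 0.25) and Gp5 at 0.30 (SE 0.34). The 3 members below 0 were Pf4 at −0.30 (SE 0.25), Gp6 at −0.09 (SE 0.40) and Mmrn1 at −0.05 (SE 0.44). The median of the 9 was 0.42, beside 0.02 over all genes, and the edgeR adjusted p-values ran from 0.59 to 0.99. These differences were not resolved at this number of libraries, which does not show that the groups are alike.

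**Figure D2:**
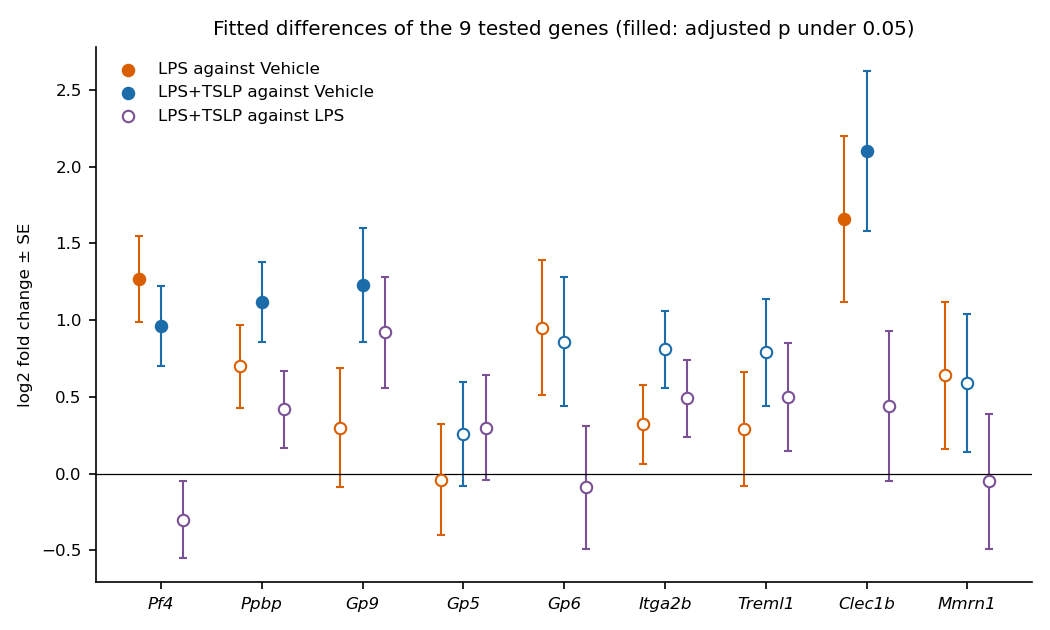
Fitted log2 fold change ± SE of the 9 tested genes in the 3 comparisons, from 1 fit of 10 libraries; filled points have an edgeR adjusted p under 0.05. The 6 filled points are Pf4 and Clec1b in LPS against Vehicle and Pf4, Ppbp, Gp9 and Clec1b in LPS+TSLP against Vehicle.

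Levels of different genes were compared per length, in TPM, the transcript share scaled by exon length. In Vehicle the order was Pf4 with a mean of 66.2 TPM, Ppbp with 39, Itga2b with 12.6, Gp9 with 9.79, Gp5 with 6.55, Treml1 with 5.25, Mmrn1 with 4.51, Clec1b with 2.08 and Gp6 with 0.81. Neighbours whose libraries overlapped were Itga2b with Gp9, Gp5 with Treml1, Treml1 with Mmrn1, and Clec1b with Gp6. The chemokines headed the order in all groups, at 129 and 53.5 TPM in LPS and 107 and 68.4 in LPS+TSLP, where their libraries overlapped. Gp6 was the lowest tested member in all groups, at 1.29 TPM in LPS and 1.17 in LPS+TSLP. From Vehicle to LPS the TPM means of Itga2b (12.6 and 12.9), Gp9 (9.79 and 9.93) and Treml1 (5.25 and 5.35) lay close. The mean of Gp5 went down, from 6.55 to 5.31, and those of Pf4, Ppbp, Clec1b, Mmrn1 and Gp6 went up. Clec1b moved from the eighth place in Vehicle to the fifth in LPS+TSLP (7.35 TPM), within the spread of Treml1 at 7.31. The full separation of treated from Vehicle libraries in CPM did not hold in TPM for Pf4, Ppbp or Clec1b. In LPS+TSLP replicate 1, Pf4 (64.7 TPM) and Clec1b (2.8) lay under Vehicle replicate 3 (85.4 and 2.89). Ppbp in LPS replicate 1 (31 TPM) lay under Vehicle replicates 2 and 3 (41.9 and 45.6).

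In each of the 9 tested members the SD of the LPS+TSLP libraries, in CPM, was the largest of the 3 groups. This was not particular to the members. Vwf (SD 170, 78.4 and 215 CPM in Vehicle, LPS and LPS+TSLP) and Calcrl (109, 160 and 617) showed it too, and Plek (37.6, 103 and 41.7) did not. The share over all tested genes was not computed. Replicate 2 was the highest of all 10 libraries for 6 of the 9 tested members and replicate 1 for the other 3. Replicate 4 was the lowest of the 4 for 6 members, and replicate 1 for Pf4, Clec1b and Mmrn1. As deviations from the group mean of log2 CPM, replicate 4 stood at −0.47 for Itga2b, −0.57 for Gp9, −0.62 for Gp5 and Gp6, −0.51 for Treml1 and −0.45 for Ppbp, and at 0.69 for Mmrn1. Replicate 1 stood at 0.45 for Gp6, 0.42 for Gp5 and 0.41 for Treml1, and at −1.31 for Mmrn1, −0.91 for Clec1b and −0.40 for Pf4. Members therefore did not go up and down as 1 block. The order of replicates 1 to 4 in Ppbp, Gp6 and Treml1, highest first, was also that of their mitochondrial shares.

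**Figure D3:**
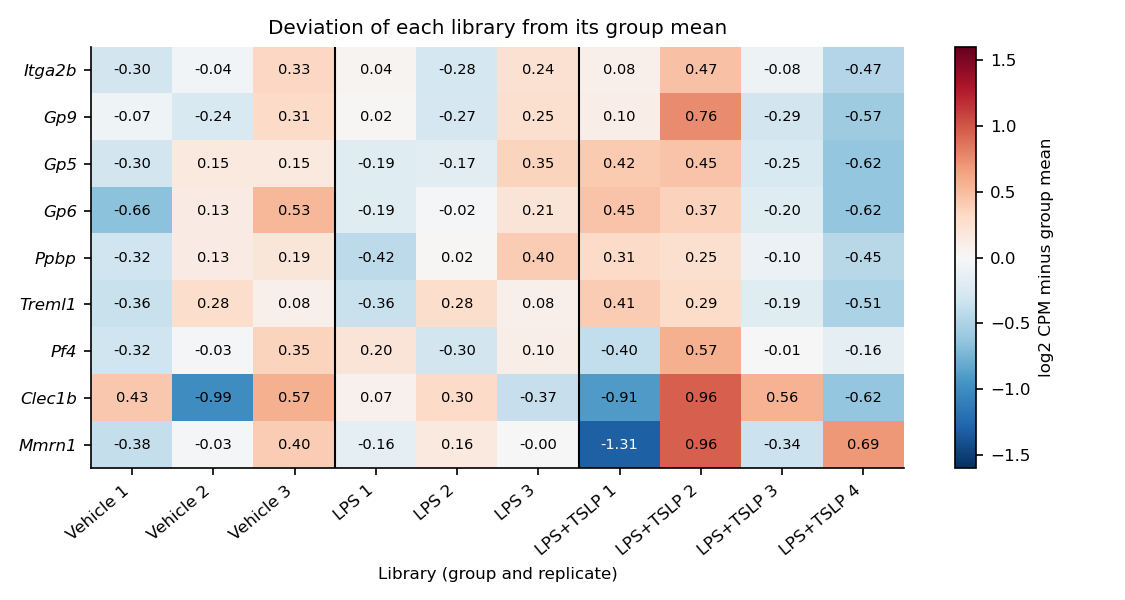
Deviation of each library from its group mean for the 9 tested genes, in log2 CPM (red above, blue below the mean; columns are the 10 libraries, separated by group). Itga2b, Gp9, Gp5 and Gp6 carry like signs in most libraries, and LPS+TSLP replicate 1 is blue for Pf4, Clec1b and Mmrn1.

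With group means removed, the deviations of Itga2b over the 10 libraries were set against those of the other 8 tested members. Itga2b was chosen as the reference after the values were seen, and the points share depth and tissue makeup of a library. The p-values, adjusted over the 8 relations, do not allow for that choice. They describe these libraries and are not support for a relation. Gp9 followed it most closely, with Pearson's r = 0.92 and Spearman's rho = 0.92 (exact permutation within groups, p = 0.0035 and 0.0046, adjusted over the 8 relations 0.028 and 0.032). Without the 2 libraries farthest out in Itga2b r was 0.82. Gp5 gave r = 0.85 and rho = 0.89 (exact permutation p = 0.013 and 0.0081, adjusted 0.037 and 0.032) and r = 0.70 without those libraries. Gp6 gave r = 0.83 and rho = 0.87 (exact permutation p = 0.014 and 0.019, adjusted 0.037 and 0.049) and r = 0.77 without them. Pf4 gave r = 0.76 and rho = 0.67 (exact permutation p = 0.044 and 0.09, adjusted 0.081 and 0.14), with r = 0.70 without them. Ppbp gave r = 0.71 and rho = 0.77 (exact permutation p = 0.051 and 0.029, adjusted 0.081 and 0.058), with r = 0.57 without them. Treml1 gave r = 0.54 and rho = 0.56 (exact permutation p = 0.17 and 0.16), with r = 0.21 without them. None of these 3 passed after adjustment. Clec1b (r = 0.31, rho = 0.32, exact permutation p = 0.48 and 0.46) and Mmrn1 (r = 0.14, rho = 0.24, exact permutation p = 0.83 and 0.61) did not pass either, and r for Clec1b went to −0.19 without those libraries. With another reference the closest genes differed. Ppbp went with Gp5 (r = 0.91), Gp6 (0.88) and Treml1 (0.88), and not with Clec1b (−0.08) or Mmrn1 (−0.10). Gp9 went less closely with Gp6 (0.68).

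The 6 tested genes whose deviations were most like the mean of the 9 members over the 10 libraries were 3830403N18Rik (r = 0.94), Gm4735 (0.92), Gm28370 (0.92), Spag1 (0.91), Gm4294 (0.90) and Rbm6 (0.89). None is on the platelet lists. Of those lists the closest was Gp1ba (r = 0.73), which ranked 145 of 17130 genes, then Mpig6b (0.72, rank 175), an inhibitory receptor of megakaryocytes, and Gata1 (0.67, rank 308), their leading transcription factor. These correlations are a description and carry no test.

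The wider platelet lists together held calls in both directions, as did all tested genes. For each list that follows, the shares over all tested genes were 14.2% higher and 10.7% lower after LPS. In LPS+TSLP they were 8.82% and 5.35%. The lists also hold genes at high levels in whole lung, such as Itgb1 (mean 1020 CPM in Vehicle), Tln1 (1050) and Sparc (2770). Their counts are therefore not a measure of platelets alone. Of 14 adhesion receptors and partners, 2 were called higher after LPS and 2 in LPS+TSLP, and none lower (median log2 0.03 and −0.09). They were Fcer1g, above, and the adhesion receptor Cd226, which is shared with lymphocytes (log2 1.52, edgeR adjusted p = 0.032 and log2 1.60, edgeR adjusted p = 0.034); with the GC trend removed Cd226 turned to −0.14 and −0.10. Its calls were also lost without Vehicle 1 or 2 or LPS 2 or 3 after LPS (edgeR adjusted p = 0.08 to 0.12) and without Vehicle 1 or 2 or LPS+TSLP 2 or 3 in LPS+TSLP (0.071 to 0.14). Of 10 agonist receptors, 1 was higher and 2 lower after LPS, and 1 higher and 1 lower in LPS+TSLP. The ADP receptor P2ry12, also a gene of microglia and macrophages, rose by log2 2.38 and 2.13 (edgeR adjusted p = 0.0097 and 0.02), while after LPS the ATP-gated channel P2rx1 fell by 1.51 (edgeR adjusted p = 0.012) and the thromboxane receptor Tbxa2r fell by 1.25 (edgeR adjusted p = 0.048). With the GC trend removed P2ry12 was not called, at log2 1.20 and 0.92. The LPS+TSLP call of P2ry12 was lost without Vehicle 1 or 2 or LPS+TSLP 2 or 3 (edgeR adjusted p = 0.052 to 0.094). The LPS call of P2rx1 was lost without Vehicle 2 (edgeR adjusted p = 0.053), and the LPS call of Tbxa2r without any 1 library other than Vehicle 3 or LPS+TSLP 1 (0.058 to 0.2). Tbxa2r was also not called with the GC trend removed (log2 −0.88, edgeR adjusted p = 0.11).

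Of 21 activation signalling genes, 5 were higher and 4 lower after LPS, and 1 higher and 3 lower in LPS+TSLP. Rgs18, a brake on G protein signalling in platelets, rose by log2 2.42 and 2.88 (edgeR adjusted p = 0.0064 and 0.0043), and stood at 0.72 and 0.95, not called, with the GC trend removed. The calcium sensor Stim1 fell by 1.19 and by 0.93 (edgeR adjusted p = 0.011 and 0.031). The second call was lost without Vehicle 1 or 2 or LPS+TSLP 2 or 3 (0.08 to 0.12) and with the GC trend removed (0.073). Of 14 tested granule proteins and eicosanoid enzymes, 1 was higher (the granule proteoglycan Srgn, log2 1.61, edgeR adjusted p = 0.006) and 1 lower (Vwf) after LPS. In LPS+TSLP 1 was lower, again Vwf.

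The list of megakaryocyte transcription factors and cytoskeletal genes also holds broadly expressed genes such as Flna and Myh9, at means of 1520 and 1550 CPM in Vehicle. Of its 17 genes none was called after LPS, where 24.9% of all tested genes were called either way, and 1 was lower in LPS+TSLP, where 14.2% were, the actin cross-linker Flna (log2 −0.95, edgeR adjusted p = 0.048, and 0.066 to 0.13 without any Vehicle library, LPS 2 or LPS+TSLP 2 or 3, each left out alone), with medians of −0.01 and −0.24. Flna was also not called with the GC trend removed (log2 −0.77, edgeR adjusted p = 0.1). Gata1 stood at log2 −0.39 after LPS and 0.52 in LPS+TSLP (edgeR adjusted p = 0.67 and 0.55), Nfe2, which drives platelet release, at 0.29 and −0.49 (edgeR adjusted p = 0.4 and 0.17), and the platelet tubulin Tubb1 at −0.58 and 0.03 (edgeR adjusted p = 0.41 and 0.97). Tubb1 was 1.89 CPM in LPS replicate 1 and at least 9.34 CPM in the other 9 libraries. Each of these lists had 0 calls in LPS+TSLP against LPS.

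**Figure D4:**
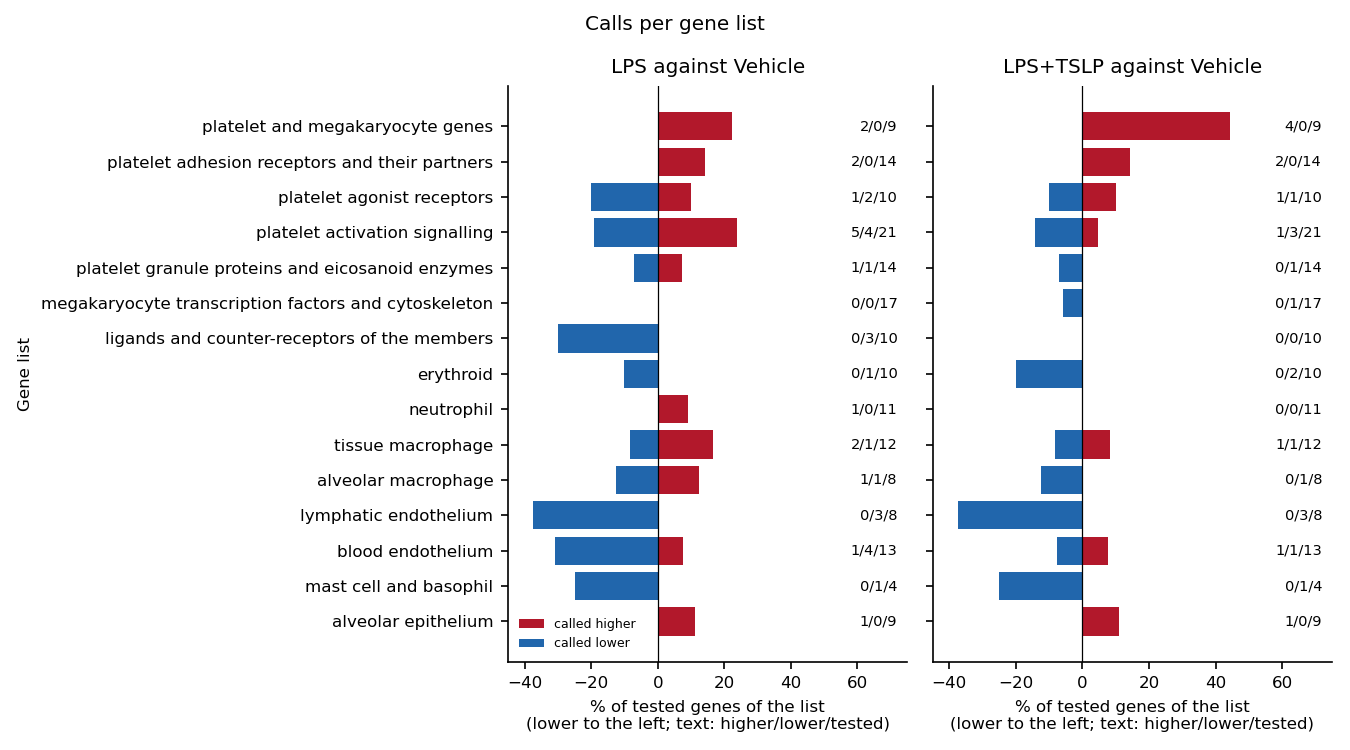
Share of the tested genes of each list that was called higher (red, right) or lower (blue, left) at an edgeR adjusted p under 0.05, in LPS and in LPS+TSLP against Vehicle; the figures beside each bar are higher, lower and tested. The members stand at 2 of 9 and 4 of 9 higher, and the megakaryocyte transcription factor and cytoskeleton list at 0 of 17 higher in both.

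In bulk lung, more (or fewer) platelets or megakaryocytes and more (or less) RNA in each cannot be told apart, and several members are also made by other cells. The summed level of the 10 members was 58.4 to 88.3 CPM in Vehicle, 112 to 134 in LPS and 109 to 196 in LPS+TSLP. Erythroid genes, a measure of blood left in the tissue, summed to 2020 to 3350 CPM in Vehicle, 1630 to 5350 in LPS and 688 to 2460 in LPS+TSLP, and 0 of 10 were called higher in either comparison with Vehicle, where 1 and 2 were called lower. Tissue macrophage genes, a cell type reported to make Pf4, summed to 825 to 1170, 1170 to 1770 and 918 to 1430 CPM, with 2 of 12 called higher and 1 lower after LPS and 1 higher and 1 lower in LPS+TSLP. Among them Maf was higher by log2 0.92 and 0.65 (edgeR adjusted p = 0.0084 and 0.036), the second call being lost without Vehicle 1 or 2 or LPS+TSLP 2 or 3 (0.07 to 0.16). Folr2 went the other way, lower by 2.06 and 1.96 on the log2 scale (edgeR adjusted p = 0.021 and 0.027), from a mean of 1.3 CPM in Vehicle. Both Folr2 calls were lost without Vehicle 1 or 2 (0.072 to 0.12), and the LPS+TSLP call also with the GC trend removed (0.052).

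Neutrophil genes summed to 472 to 1330 CPM in Vehicle, 1610 to 2280 in LPS and 562 to 1140 in LPS+TSLP, with 1 of 11 called higher after LPS. Lymphatic endothelial genes, beside Mmrn1, summed to 576 to 642, 720 to 1110 and 275 to 773 CPM, with LPS+TSLP replicate 1 the lowest for both the sum and Mmrn1, and 0 of 8 called higher and 3 lower in each comparison with Vehicle. Lyve1 and Pdpn were the largest parts of that sum, at means of 525 and 306 CPM in LPS. LPS+TSLP replicate 1 was also the lowest of the 10 libraries for blood endothelial (3680 CPM), alveolar epithelial (4640), alveolar macrophage (258) and erythroid (688) sums. It was not the lowest for the neutrophil or tissue macrophage sums. A low level in this library was therefore not particular to lymphatic genes. Blood endothelial genes had 1 higher and 4 lower of 13 after LPS and 1 higher and 1 lower in LPS+TSLP. No gene of these lists was at 0 in all libraries. The part of these cell types, of the GC trend and of the mitochondrial share in the members' differences was not tested.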

How the data were processed

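Total RNA of lung tissue was sequenced in 10 libraries. Values are raw counts of reads per gene as deposited; the submitters' processing notes name CASAVA, HISAT2, HTSeq 0.6.0 and the build GRCm38/mm10. The annotation release and strand setting are not given in the sources used here. Positions, exon overlaps and GC content came from GENCODE M21, and upstream sequences from RefSeq.

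Counts were filtered with filterByExpr (17139 genes kept), scaled by TMM and tested with the quasi-likelihood test of edgeR 4.0.16 (R 4.3.3), two-sided, in 1 model of the 3 groups over the 10 libraries (7 residual degrees of freedom). Log2 CPM used a prior count of 2. TPM values were computed from exon lengths. The test was tried on simulated data. No pair of libraries in a group was a copy.

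The members and gene lists were chosen with earlier results of these data known. All members were named, then partner genes chosen whatever their values, then the called genes of each list with the smallest p. Of these the text gives some, not always the first, and for some lists none. Alternatives were other scaling factors, tests (DESeq2 1.42.0, limma-voom of limma 3.58.1) and filters, fits of the compared groups, a replicate block, removal of GC trends by loess (span 0.3), and leaving out each library. Deviations of libraries that share a replicate number correlated at −0.34 to 0.4, over 0.1 in 3 of 9 pairs. Pairs of unlike number were not set beside them, so these values cannot decide whether the libraries were paired. No pairing was used in the main fit. Intervals for 0 counts cover counting error only.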

Additional observations from a re-analysis of the deposited data

Results flagged for a closer look

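Among the 4 LPS+TSLP libraries, 1 library stood apart from the other 3 in 6 of the 50 genes examined, where the gap to the nearest library divided by the whole range passed Dixon's critical value for groups of 4. Chance gives about 1 in 20. No platelet or megakaryocyte member was among them. LPS+TSLP replicate 1 was low for Pdpn, the CLEC-2 ligand (ratio 0.976, at log2 CPM 6.61 against 7.65 for the next library), for Kit (0.958, 7.09 against 7.49) and for Lamp3 (0.869, 6.62 against 8.96). It also had the highest mitochondrial share, 13.1%. LPS+TSLP replicate 4 was low for the platelet tubulin Tubb1 (0.952, 3.24 against 3.87) and high for the lymphatic transcription factor Foxc2 (0.905, 1.52 against −0.02). LPS+TSLP replicate 3 was high for Maf (0.859, 6.23 against 5.98).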

How the results depend on the processing

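Over the tested members, 567 values from alternative analyses gave 500 on the same side of the threshold and in the same direction, 43 that lost a call, 8 that gained one and 16 that changed sign. Pf4 after LPS was called in all 21 alternatives. The number of members called after LPS was 1 in place of 2, Pf4 alone, with library size alone, limma-voom, the replicate block, the GC trend removed, and both together; without 1 library it ran from 1 to 2. In LPS+TSLP against Vehicle it was 2 in place of 4 with only the groups compared, and 0 to 5 without 1 library. In LPS+TSLP against LPS it was 0 throughout.

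With the replicate block, a pairing that the libraries' correlations could not decide, 5 members were called in LPS+TSLP against Vehicle (Itga2b was gained) and 0 against LPS. Counts over all genes moved by more than 1.5 times in LPS+TSLP against Vehicle: 1511 higher and 917 lower became 788 and 656 with the GC trend removed, 2296 and 1629 with the DESeq2 Wald test, and 435 and 81 without Vehicle replicate 1. After LPS 2437 and 1836 became 1012 and 824 without Vehicle replicate 2.

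Values that changed sign were small or uncalled except Cd226. With the GC trend removed Gp5 after LPS became 0.27, Gp1ba 0.01 after LPS and 0.07 in LPS+TSLP, Cd226 −0.14 and −0.10, and Pdpn in LPS+TSLP 0.13. With the replicate block added these were 0.27 for Gp5, 0.15 for Gp1ba in LPS+TSLP, −0.16 and −0.21 for Cd226 and 0.05 for Pdpn, and Mmrn1 in LPS+TSLP became −0.30. Gp6 against LPS was 0.12 with the block alone and 0.19 with both. Without LPS 1 and LPS+TSLP 1 together, Gp5 after LPS was 0.08, Mmrn1 against LPS 0.16 and Pdpn in LPS+TSLP 0.21. Pdpn was 0.00 with the 1 CPM filter and with only the groups compared, and Tubb1 in LPS+TSLP −0.00 with library size alone. Without 1 library the ranges that crossed 0 were −0.24 to 0.25 for Itgb3 and −0.21 to 0.06 for Gp5 after LPS, −0.14 to 0.19 for Pdpn and −0.02 to 0.21 for Tubb1 in LPS+TSLP, and −0.40 to 0.22 for Mmrn1 and −0.26 to 0.11 for Gp6 against LPS. The causes were not tested. Counts of 15 to 60 reads limit Gp6, and 0 to 2 reads leave Gp1bb without a test.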
